A study of Arabidopsis thaliana with 12 samples.

Results

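AT5G44400, AT5G44440 and AT1G30700 are 3 nuclear genes of the berberine bridge enzyme-like (BBE-like) family of Arabidopsis thaliana. They were picked by name from the 13286 genes that had a probe set of their own on the array, and each was read from a probe set that names no other gene. A hand-written list of the family held 27 loci, of which 22 genes had a probe set of their own, 2 further probe sets named a pair of family loci each, and 2 loci had neither in the annotation used. The choice was made with the array values of these genes known, so their levels and differences are given as a description. Whether a difference met the call rule of the whole table is stated as part of that description, and nothing is supported with it.

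Whole light-grown seedlings, 5 days old, were profiled on 12 Affymetrix ATH1 arrays. The medium held 1% sucrose, the temperature was 21 °C, and dark periods alternated with light of 20 µmol per m2 and s. All plants were of the Col-0 ecotype and were wild type, gun1-1 or abi4-102, each without and with lincomycin (220 µg/ml in the protocol, 200 µg/ml in the sample name), which gave 6 groups of 2 arrays. Lincomycin blocks protein synthesis on plastid ribosomes, GUN1 is a pentatricopeptide repeat protein of the plastid that takes part in signalling from plastid to nucleus, and ABI4 is a transcription factor of the AP2 family. The genes mutated in gun1-1 and abi4-102 had 0 probe sets of their own in the annotation used, so the genotype labels were not checked against them. For replicate 2 of gun1-1 without lincomycin the genotype field holds the names of all 3 genotypes, and its title was followed. RNA came from whole seedlings, in which fewer cells of a type and less RNA per cell cannot be told apart.

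BBE-like proteins are flavin-dependent oxidases, most of which enter the secretory pathway. The family is named after the berberine bridge enzyme of poppies and their relatives, which closes a ring in the synthesis of benzylisoquinoline alkaloids, a pathway that Arabidopsis lacks. In Arabidopsis, members of known activity oxidise monolignols, the building blocks of lignin, or cell wall oligosaccharides such as oligogalacturonides and cellodextrins, and one takes part in making a cyanogenic defence compound from tryptophan. Many members are known to be induced by pathogens or wounding. For AT5G44400 and AT1G30700 no substrate is stated here, and the protein of AT5G44440 is known from a crystal structure.

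The 3 genes followed 3 different patterns. AT5G44400 was lowest in gun1-1 on lincomycin. AT5G44440 was highest in abi4-102, with lincomycin or without it. AT1G30700 was low in gun1-1 on either medium, and its group means were lower with lincomycin in each genotype. Over 9 comparisons, 6 of 27 differences of these genes met the call rule used for the whole table, a Benjamini-Hochberg adjusted p under 0.05 in the limma fit. Of all probe sets, 17.4% met it for lincomycin in Col-0, 10.7% in gun1-1 and 13.2% in abi4-102. For the response of gun1-1 minus that of Col-0 the share was 4.38%, and for abi4-102 it was 0%. Between gun1-1 and Col-0 it was 10.0% with and 0.0220% without lincomycin, and between abi4-102 and Col-0 0.457% with and 1.68% without it.

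**Figure D1:**
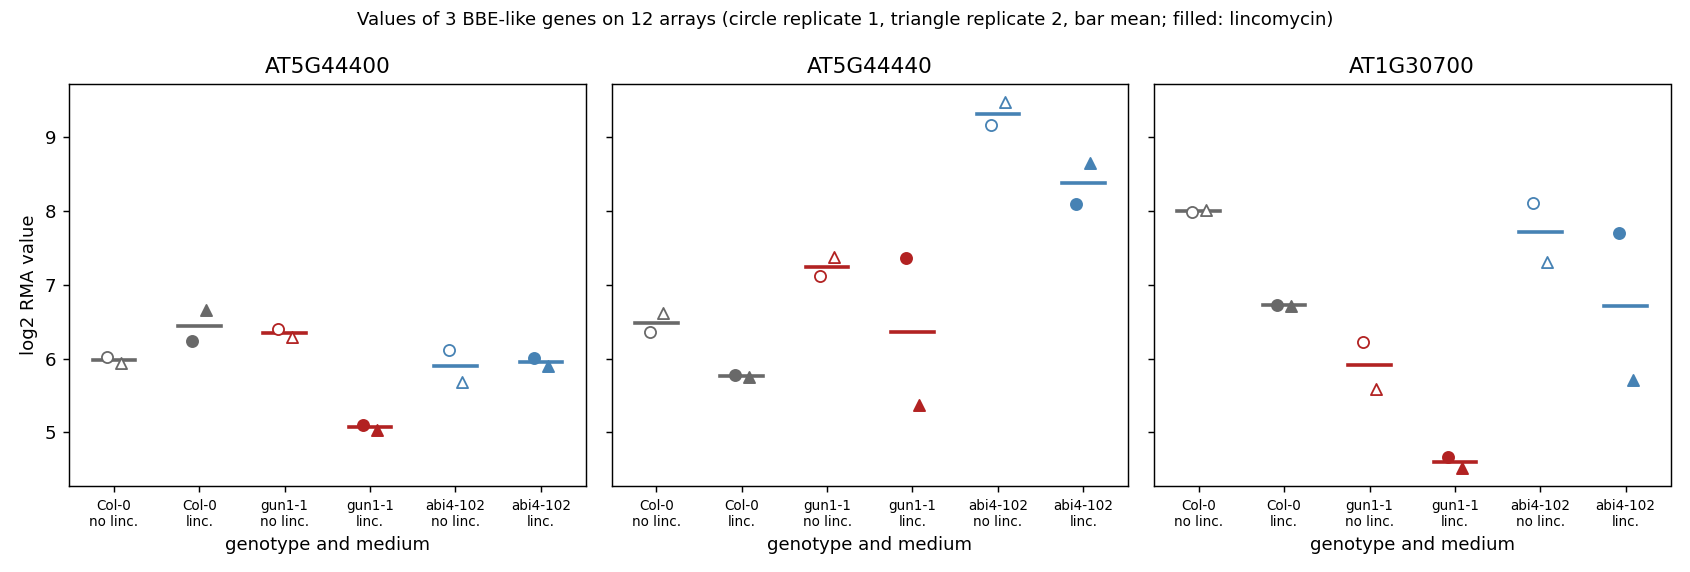
Log2 RMA values (vertical axis) of AT5G44400, AT5G44440 and AT1G30700 on the 12 arrays, by genotype and medium (horizontal axis), with circles for replicate 1, triangles for replicate 2, filled symbols for lincomycin and bars for the means of 2 arrays. AT5G44400 lies lowest in gun1-1 with lincomycin, AT5G44440 highest in abi4-102 and AT1G30700 lowest in gun1-1; heights are not comparable between the panels because probe sets differ in brightness.

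AT5G44400 had log2 values of 6.02 and 5.95 in Col-0 without lincomycin and of 6.23 and 6.66 with it. In gun1-1 the values were 6.41 and 6.29 without lincomycin and 5.10 and 5.04 with it. In abi4-102 they were 6.11 and 5.68 without lincomycin and 6.01 and 5.90 with it. The 2 arrays of gun1-1 with lincomycin thus lay below all 10 others, and the remaining groups spanned 5.68 to 6.66.

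With lincomycin, AT5G44400 was 2.43-fold lower in gun1-1 (log2 difference -1.28, SE 0.17, n = 2 arrays a group). In Col-0 its mean was 1.38-fold higher with lincomycin (0.47, SE 0.17), a difference that did not meet the call rule, and in abi4-102 the arrays of both media overlapped (0.06, SE 0.17). The response of gun1-1 minus that of Col-0 was -1.75 (SE 0.23), and the response of abi4-102 minus that of Col-0 was -0.40 (SE 0.23). On lincomycin AT5G44400 was 2.60-fold lower in gun1-1 than in Col-0 (-1.38, SE 0.17), while without lincomycin it was 1.29-fold higher (0.37, SE 0.17). The gun1-1 response, the difference of the responses and the difference on lincomycin met the call rule. Of all probe sets, 4.90% were called lower with lincomycin in gun1-1, 1.16% had a called lower response in gun1-1 than in Col-0, and 4.04% were called lower in gun1-1 than in Col-0 on lincomycin. Nothing is read from these shares, since the gene was chosen with these values known. Leaving out 1 of the arrays compared gave differences of -1.34 to -1.22, -1.96 to -1.53 and -1.59 to -1.16.

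Ordered by group mean, AT5G44400 stood at 6.45 in Col-0 with lincomycin and 6.35 in gun1-1 without it, and the arrays of these groups overlapped. Col-0 without lincomycin (5.98), abi4-102 with lincomycin (5.96) and abi4-102 without it (5.90) followed, again overlapping from one to the next. The step to gun1-1 with lincomycin (5.07) was 0.83 on the log2 scale, with no overlap.

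The mutant abi4-102 had the highest values of AT5G44440. They were 9.16 and 9.48 without lincomycin and 8.10 and 8.66 with it. In Col-0 the values were 6.36 and 6.61 without lincomycin and 5.77 and 5.76 with it. In gun1-1 they were 7.12 and 7.37 without lincomycin, and with lincomycin the 2 arrays lay far apart, at 7.36 and 5.37. All 4 abi4-102 arrays thus exceeded the other 8.

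Without lincomycin AT5G44440 was 7.12-fold higher in abi4-102 than in Col-0 (log2 difference 2.83, SE 0.47), and on lincomycin it was 6.12-fold higher (2.61, SE 0.47). Both differences met the call rule, which 0.914% and 0.312% of all probe sets met as higher in abi4-102, and nothing is read from these shares either. Without any 1 of the 4 arrays of a comparison the rule was no longer met, and the differences were 2.67 to 2.99 without and 2.34 to 2.89 with lincomycin. With an intensity trend and robust prior in eBayes the rule was met on neither medium. The 2 comparisons take their means from separate arrays but share 1 estimate of the spread from all 12 arrays, so they are not independent tests. In gun1-1 the gene was 0.76 (SE 0.47) above Col-0 without lincomycin and 0.60 (SE 0.47) above it on lincomycin, and neither difference met the call rule. On lincomycin that difference rested on 1 array, since it was 1.60 without gun1-1 with lincomycin replicate 2 and -0.40 without replicate 1.

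Lincomycin itself went with a lower mean of AT5G44440 in each genotype, and none of these differences met the call rule. The log2 differences were -0.72 in Col-0, -0.88 in gun1-1 and -0.94 in abi4-102 (SE 0.47 each). The arrays of both media did not overlap in Col-0 and abi4-102 and overlapped in gun1-1. Without gun1-1 with lincomycin replicate 1 the gun1-1 difference was -1.88, and without replicate 2 it was 0.12. The responses of gun1-1 and abi4-102 differed from that of Col-0 by -0.16 and -0.22 (SE 0.66 each), which is less than the pooled SD of 0.61 between replicates.

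The order of AT5G44440 ran from abi4-102 without lincomycin (9.32) over abi4-102 with lincomycin (8.38) and gun1-1 without lincomycin (7.24) to Col-0 without lincomycin (6.49), each step without overlap. Col-0 without lincomycin overlapped gun1-1 with lincomycin (6.37), and the latter overlapped Col-0 with lincomycin (5.76).

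AT1G30700 was highest in Col-0 without lincomycin, at 7.99 and 8.01, and stood at 6.73 and 6.71 in Col-0 with lincomycin. In gun1-1 the values were 6.22 and 5.59 without lincomycin and 4.67 and 4.52 with it. In abi4-102 they were 8.11 and 7.32 without lincomycin, and 7.71 and 5.72 with it. The Col-0 arrays agreed closely within each group, the 2 abi4-102 arrays with lincomycin were the least alike, and every gun1-1 array lay below the Col-0 arrays of its medium.

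On lincomycin AT1G30700 was 4.37-fold lower in gun1-1 than in Col-0 (log2 difference -2.13, SE 0.49), a difference that met the call rule. Without lincomycin it was 4.27-fold lower (-2.10, SE 0.49) and did not meet the rule. The threshold that the adjustment sets differs between the media, since 2279 probe sets were called on lincomycin and 5 without it. Without any 1 of the 4 arrays compared the difference on lincomycin was between -2.20 and -2.05 and no longer met the rule, nor did it with an intensity trend and robust prior. In abi4-102 the gene was close to Col-0 on average, with differences of -0.29 without and -0.01 with lincomycin (SE 0.49 each) and overlapping arrays; on lincomycin the difference was 0.99 without abi4-102 replicate 2 and -1.0 without replicate 1.

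The lincomycin response of AT1G30700 was -1.28 in Col-0, -1.32 in gun1-1 and -1.0 in abi4-102 (SE 0.49 each), which is 2.43-fold, 2.49-fold and 2.00-fold lower. None met the call rule with all 12 arrays in the fit, where each SE also takes in the spread of the abi4-102 arrays with lincomycin (SD 1.41). The arrays of both media did not overlap in Col-0 or gun1-1 and overlapped in abi4-102, where the response was -2.0 without abi4-102 with lincomycin replicate 1 and -0.0058 without replicate 2. The response of gun1-1 minus that of Col-0 was -0.03 and that of abi4-102 minus Col-0 0.28 (SE 0.69 each).

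By group mean, Col-0 without lincomycin (8.0) overlapped abi4-102 without lincomycin (7.71). After a step of 0.99 without overlap came Col-0 with lincomycin (6.72), which overlapped abi4-102 with lincomycin (6.71), and the latter overlapped gun1-1 without lincomycin (5.91). The step from there to gun1-1 with lincomycin (4.59) was 1.32, with no overlap.

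**Figure D2:**
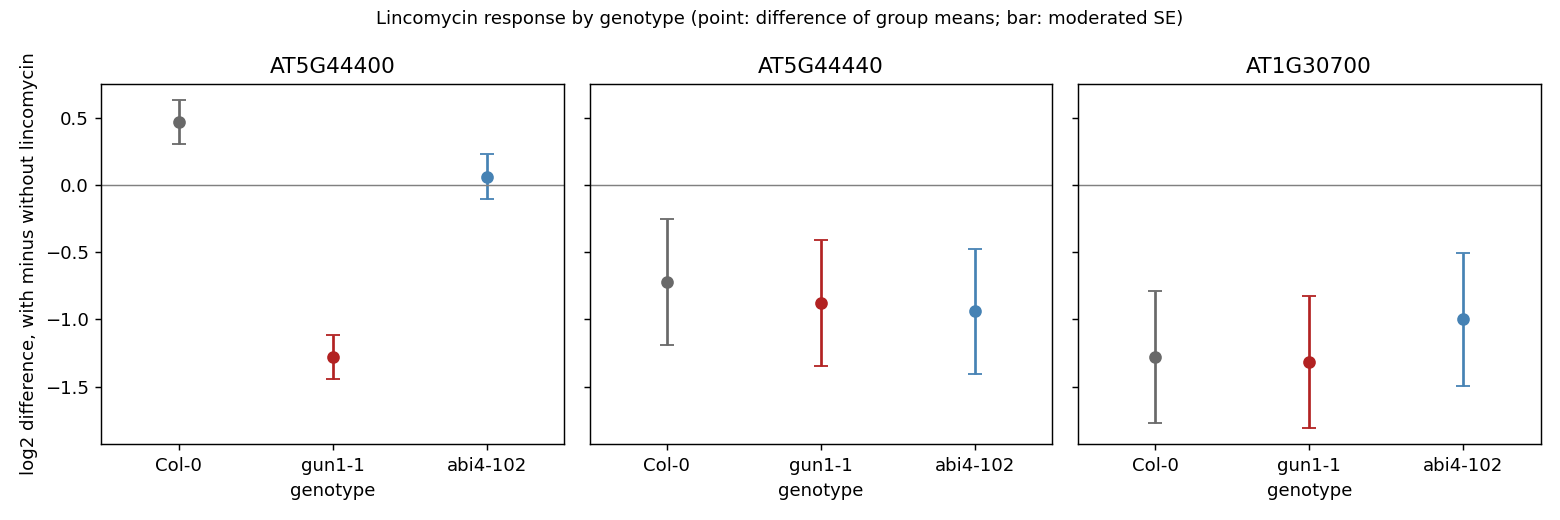
Log2 difference with minus without lincomycin (vertical axis) of the 3 genes in each genotype (horizontal axis); points are differences of the means of 2 arrays and bars the SE of the fit. AT5G44400 stands at -1.28 in gun1-1 against 0.47 in Col-0 and 0.06 in abi4-102, while the points of AT5G44440 and of AT1G30700 lie between -0.72 and -1.32 in all 3 genotypes.

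AT5G44400 and AT5G44440 lie near each other on chromosome 5. In the gene order of assembly TAIR10.1, AT5G44380, AT5G44390, AT5G44400 and AT5G44410 follow one another, and the defensin genes PDF1.2 and PDF1.2c separate them from AT5G44440. AT1G30700 lies on chromosome 1 before AT1G30710, AT1G30720 and AT1G30730 of the same family. Of the 15 distinct genes within 3 places of these genes, 9 had a probe set of their own in the annotation used.

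The lincomycin response of the measured family neighbours of AT5G44400 was not called different between gun1-1 and Col-0. AT5G44390 rose 1.46-fold with lincomycin in Col-0 (log2 difference 0.55, SE 0.17, limma adjusted p = 0.0475) and differed by 0.08 in gun1-1, and the difference of these responses was -0.47 (SE 0.24, adjusted p = 0.373). AT5G44410 fell 1.60-fold with lincomycin in Col-0 (-0.68, SE 0.18, adjusted p = 0.0229) and had differences of -0.59 in gun1-1 and -0.53 in abi4-102. AT5G44380 was 1.59-fold lower in gun1-1 than in Col-0 on lincomycin (-0.67, SE 0.19, adjusted p = 0.0483), and its response did not differ between these genotypes by the test (-0.33, SE 0.27, adjusted p = 0.615).

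Beside AT5G44440, PDF1.2, a jasmonate-induced defensin gene, differed between abi4-102 and Col-0 by -0.14 without and 0.26 with lincomycin. Its values were 2.84 to 3.28 on the 12 arrays, as dim as the lowest 25% of probe sets, where RMA shows little difference, and those of AT5G44470 were 3.14 to 3.5. The brighter CML43, a calmodulin-like gene, differed by 0.14 and 0.29, and AT5G44450 by -0.14 and -0.04. None of these 4 was called in any of the 9 comparisons. Beside AT1G30700, AT1G30690 of the patellin family fell with lincomycin in Col-0 (-0.50, adjusted p = 0.0174), gun1-1 (-0.94, adjusted p = 0.00151) and abi4-102 (-0.69, adjusted p = 0.00496). It did not pass between gun1-1 and Col-0 (0.14 without and -0.30 with lincomycin), where AT1G30700 stood at -2.10 and -2.13.

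The rest of the family was measured by 21 probe sets, 19 that name 1 gene and 2 that name a pair. Of these, 7 had a mean below 3.69 on the log2 scale, the 25th percentile over all probe sets, where RMA shows little difference, and 0 of the 7 were called in any comparison. The other 14 carried all the calls below. These genes were not chosen by their values, but their list was written with earlier results of these data known.

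On lincomycin 4 of the 21 probe sets were lower in gun1-1 than in Col-0 at an adjusted p under 0.05 and 0 were higher, against 4.04% and 5.98% of all probe sets. The median log2 difference of the 21 was -0.11, against -0.03 over all probe sets. AT1G30760, a monolignol oxidase, was 1.58-fold lower (-0.66, SE 0.13, adjusted p = 0.0102). AT4G20830, an oligogalacturonide oxidase, was 2.08-fold lower (-1.05, SE 0.26, adjusted p = 0.0265), and AT4G20860, an oxidase of cellodextrins, 2.01-fold lower (-1.01, SE 0.28, adjusted p = 0.0473). AT5G44380 was the last of the 4. A probe set that names AT4G20830 together with AT4G20840 did not follow the one of AT4G20830 alone (0.10, SE 0.18). The count of 4 fell to 0 without Col-0 with lincomycin replicate 2 or gun1-1 with lincomycin replicate 2, and to 2 without gun1-1 with lincomycin replicate 1 or with each array centred on its median. A fit of only these 2 groups called none of these 4 (adjusted p = 0.0546 for AT1G30760 in limma) and called the probe set of AT1G30720 and AT1G30730 (adjusted p = 0.00869). Without Col-0 with lincomycin replicate 1 the count was again 4, with AT1G26420 in place of AT5G44380.

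On lincomycin 10 of the 21 had both gun1-1 arrays below both Col-0 arrays, against 27.1% of all probe sets, and without lincomycin 10 did, against 19.0%. Without lincomycin 0 of the 21 were called in the limma fit, with 6 at an unadjusted p under 0.05, which 6.74% of all probe sets had. The genes AT1G26380, AT1G26390, AT1G26410 and AT1G26420 and the probe set of AT1G30720 and AT1G30730 were lower on both gun1-1 arrays of each medium and passed in neither. AT1G26380 differed by -2.49 with lincomycin and -2.34 without it (SE 1.08 each, adjusted p = 0.195 with lincomycin), and the probe set of AT1G30720 and AT1G30730 by -1.94 and -1.59 (SE 0.63 each). AT4G20860 was -1.27 (SE 0.28, adjusted p = 0.347) without lincomycin, where the adjustment left 5 calls among all probe sets. The family comparisons of gun1-1 and of abi4-102 share the Col-0 arrays of each medium.

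Of the 21 other family probe sets 1, that of AT1G30760, had a lincomycin response called different in gun1-1 from that in Col-0, against 4.38% of all probe sets. Nothing is read from this count, and the difference was not refitted under the other settings. It had values of 5.12 and 4.83 in Col-0 without lincomycin, 5.35 and 5.39 in Col-0 with it, 5.43 and 5.27 in gun1-1 without it and 4.82 and 4.61 in gun1-1 with it. In gun1-1 it fell 1.55-fold with lincomycin (log2 difference -0.63, SE 0.13, adjusted p = 0.0148), while in Col-0 the difference was 0.40 (SE 0.13, adjusted p = 0.0679). The responses differed by -1.03 (SE 0.19, adjusted p = 0.0132), beside -1.75 for AT5G44400. In abi4-102 AT1G30760 stood at 5.53 on both arrays without lincomycin and at 5.82 and 5.60 with it.

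In abi4-102, 0 of the 21 other probe sets were called against Col-0 on either medium in the limma fit. Of all probe sets 1.68% were called without and 0.457% with lincomycin, so nothing is read from this count. An unadjusted p under 0.05 was reached by 3 of the 21 without and 1 with lincomycin, against 14.7% and 11.0% of all probe sets. Their differences ran from -0.81 (AT2G34810) to 0.64 (AT5G44390) without lincomycin and from -0.82 (AT1G26380) to 0.42 (AT1G26390) with it, beside 2.83 and 2.61 for AT5G44440. With lincomycin in Col-0, AT2G34810 fell 2.20-fold (-1.14, SE 0.19, adjusted p = 0.00198) and AT5G44410 fell as well, while AT5G44390 rose, so that 2 of 21 were lower and 1 higher, against 7.95% and 9.40% of all probe sets. In abi4-102 the lincomycin response was called for 0 of the 21, against 13.2% of all probe sets, with 2 at an unadjusted p under 0.05, against 26.9%.

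**Figure D3:**
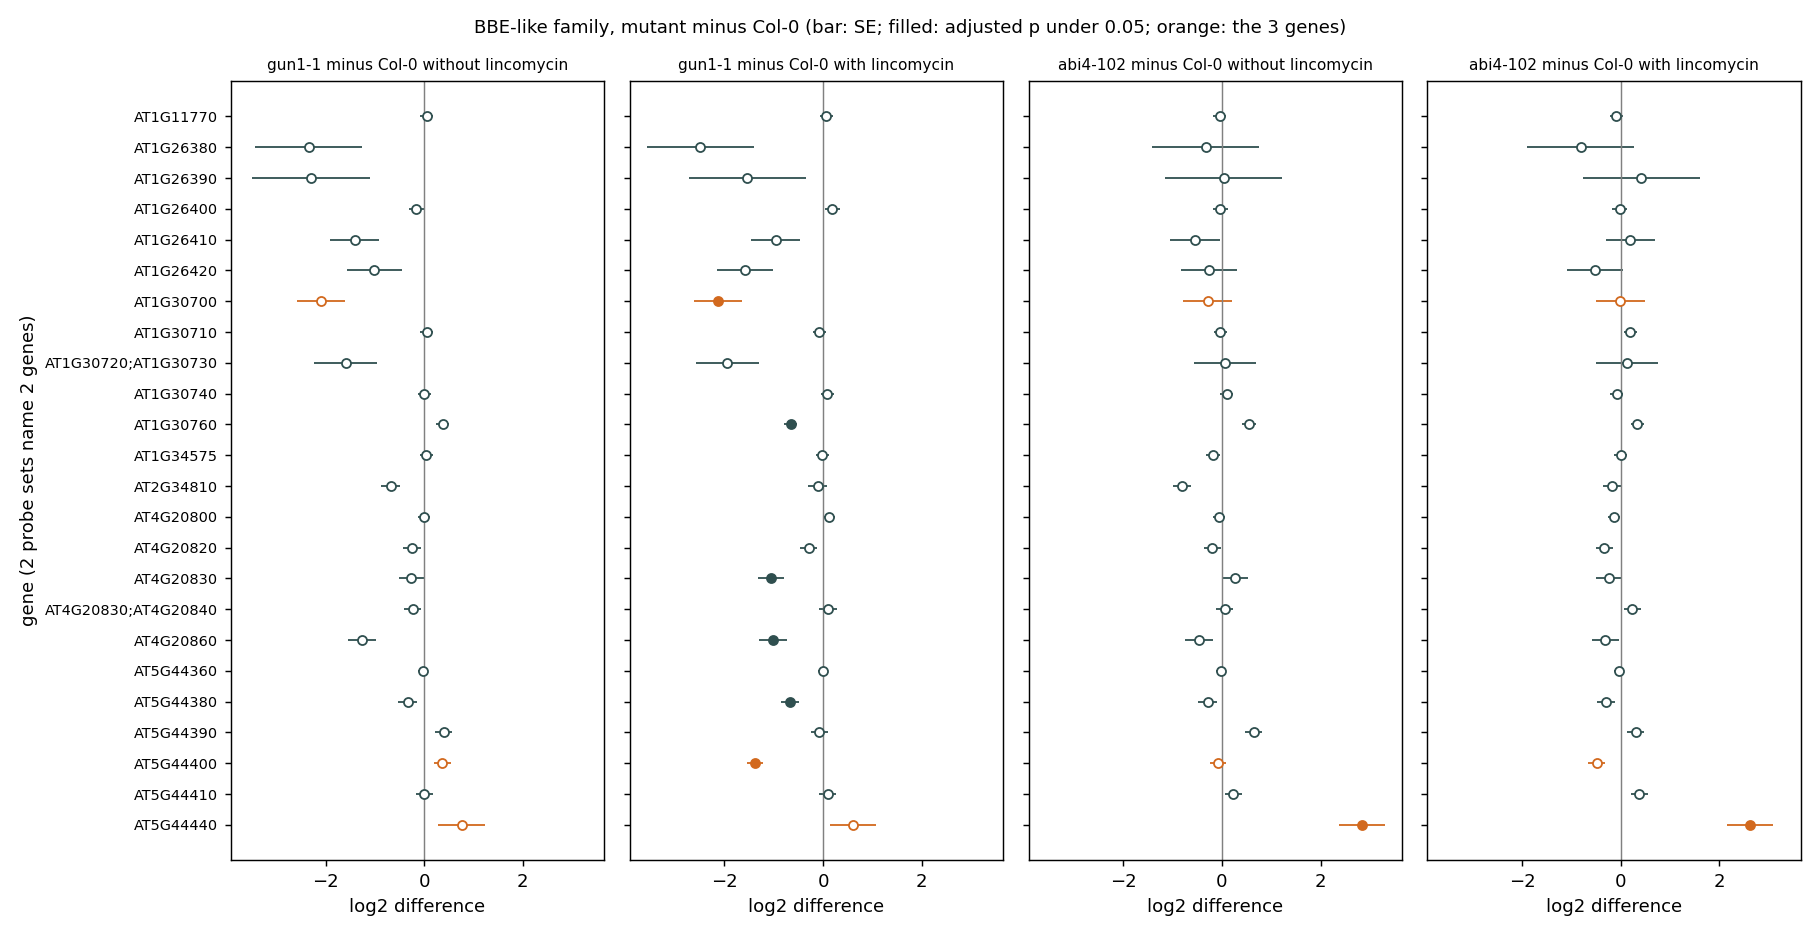
Log2 difference of mutant minus Col-0 (horizontal axis) for the 24 BBE-like probe sets (vertical axis), for each mutant and medium; bars are the SE, filled points have an adjusted p under 0.05 and the 3 genes are orange. In abi4-102 AT5G44440 stands alone at 2.83 and 2.61, while in gun1-1 the points of AT1G26380 to AT1G26420 other than AT1G26400, of AT1G30700 and of the pair AT1G30720 and AT1G30730 lie left of 0 on both media with wide bars.

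AT1G30700 varied over the arrays much like some other family genes, most but not all of them on chromosome 1. Over the 12 arrays its log2 values correlated at r = 0.94 with the probe set of AT1G30720 and AT1G30730, 0.91 with AT1G26410, 0.89 with AT1G26390, 0.85 with AT1G26380 and 0.75 with AT1G26420, and at 0.90 with AT4G20860 and 0.81 with AT5G44380. These 7 of the 23 other family probe sets reached r = 0.7. For AT5G44400 and AT5G44440 0 of 23 did. The other measured family genes of chromosome 1 correlated with AT1G30700 at -0.54 (AT1G11770) to 0.44 (AT1G30760), with 0.29 for the adjacent AT1G30710. The points are arrays that share medium and genotype, so these values describe the arrays and carry no p.

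Several of the family genes that reached r = 0.7 with AT1G30700 differed widely between the 2 arrays of a group. AT1G26380, which encodes an oxidase of the cyanogenic pathway from tryptophan, stood at 7.18 and 3.92 in abi4-102 with lincomycin, at 5.83 and 3.36 in gun1-1 without it and at 4.98 and 7.74 in Col-0 with it. Replicate 1 was higher in the first 2 groups and lower in the last. In abi4-102 with lincomycin replicate 1 exceeded replicate 2 by 1.99 for AT1G30700, by 3.26 for AT1G26380, by 3.88 for AT1G26390 and by 1.68 for AT1G26410. In Col-0 with lincomycin AT1G30700 differed by 0.02 between the arrays, while AT1G26380 differed by -2.76 and AT1G26390 by -1.79.

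The largest gap between replicates of AT1G30700 was wider than that of 99.6% of all probe sets, as was that of AT5G44440, and the gap of AT5G44400 was wider than that of 67.7%. The arrays behind these gaps were not the same. AT5G44440 differed by 2.00 in gun1-1 with lincomycin, where AT1G30700 differed by 0.15 and AT5G44400 by 0.06. In abi4-102 with lincomycin AT5G44440 differed by -0.56, opposite to AT1G30700.

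**Figure D4:**
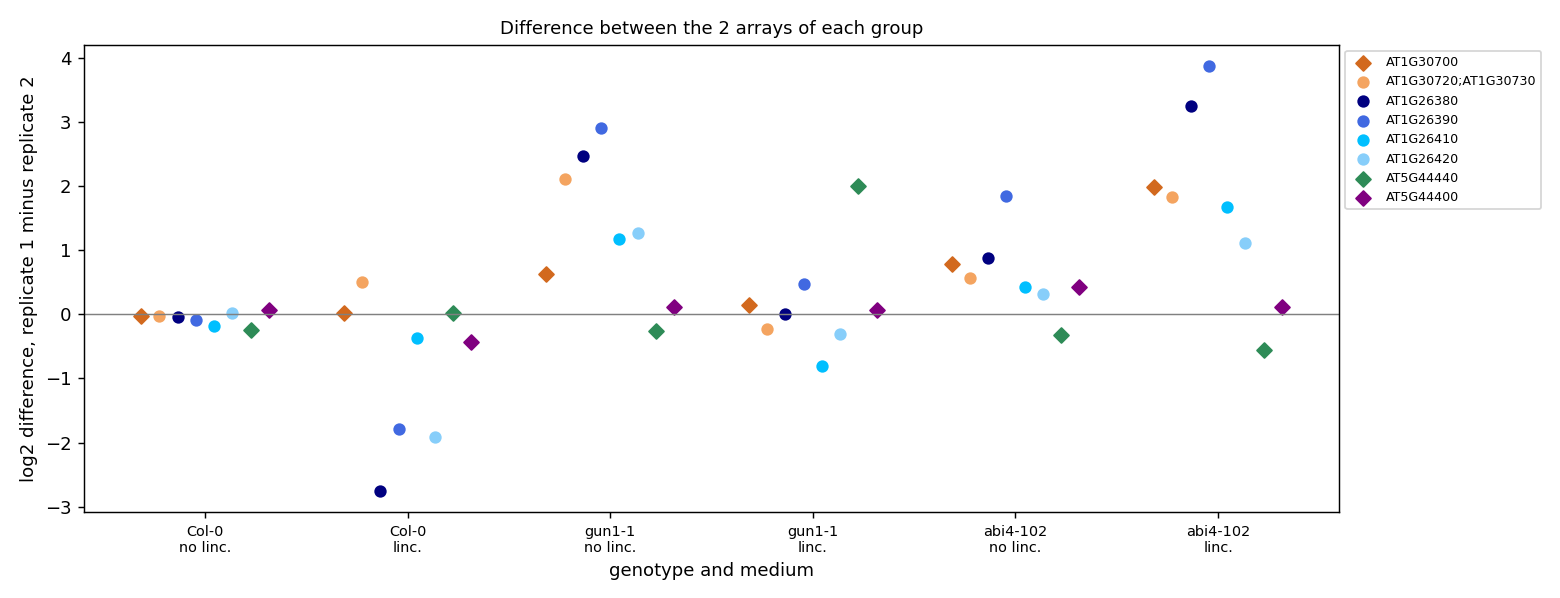
Log2 difference of replicate 1 minus replicate 2 (vertical axis) in each of the 6 groups (horizontal axis) for the 3 genes (diamonds) and 5 other family probe sets of chromosome 1 (circles). The chromosome 1 genes shown lie above 0 together in gun1-1 without lincomycin and in abi4-102 on both media, and the gap of AT5G44440 at 2.00 is in gun1-1 with lincomycin.

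Among 1208 genes whose group means spanned at least 1 on the log2 scale, those most like AT1G30700 over the 12 arrays were CHI, a chitinase gene (r = 0.97, Spearman's rho 0.94), AT5G62150 (0.96), AT4G16260, a beta-1,3-glucanase gene (0.96), AT3G26470 (0.95) and SUFE2, of iron-sulphur cluster assembly (0.94). CHI stood at 7.72 and 5.95 in gun1-1 without lincomycin and at 9.24 and 6.87 in abi4-102 with it. Its replicates parted there in the same direction as those of AT1G30700. In gun1-1 with lincomycin they parted the other way, at 5.27 and 5.85. CHI was picked for its likeness on these same arrays, so shared gaps follow from the choice.

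For AT5G44440 the most alike were AT5G26270 (r = 0.92), AT4G17470 (0.90), AT1G73120 (0.89), AT5G38020 (0.87) and AT4G11190 (0.86). AT5G26270 had values of 11.05 and 11.08 in abi4-102 without lincomycin and of 9.25 and 9.28 in Col-0 without it. AT4G11190, a dirigent-like gene, stood at 8.93 and 7.49 in gun1-1 with lincomycin, where the arrays of AT5G44440 also parted.

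For AT5G44400 likeness was weaker, led by AT3G18560 (r = 0.87, rho 0.83), AT3G54400 (0.85), AT5G19120 (0.84), AT5G61660 (0.82) and AT3G60490 (0.81). AT3G18560 stood at 5.90 and 5.99 in gun1-1 with lincomycin and between 6.33 and 7.48 on the other 10 arrays, and AT5G19120 at 9.30 and 8.96 against 9.47 to 10.53. No gene is in more than one of these 3 groups of 5. All of them were picked for likeness on these same arrays, so shared levels and gaps follow from the choice and nothing is read from them.

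Few other genes linked to the reactions of the family had a probe set of their own in the annotation used. Genes are called measured here and below if they had one, and the 8730 unnamed probe sets may hold others. Of 18 monolignol synthesis genes 2 had a probe set of their own. HCT, which makes the shikimate esters of the pathway, fell 1.39-fold with lincomycin in gun1-1 (log2 difference -0.48, SE 0.12, adjusted p = 0.0265), against 4.90% of all probe sets called lower. CCR2 was not called in any comparison. Of 8 lignin laccases and peroxidases 4 were measured, and the peroxidase gene AT1G71695 was lower in gun1-1 than in Col-0 on lincomycin (-0.58, SE 0.16, adjusted p = 0.0464), against 4.04% of all probe sets called lower. The peroxidase genes AT2G37130 and AT3G21770 passed in 1 comparison each. The first was higher with lincomycin in Col-0 (0.86, SE 0.26, adjusted p = 0.0419), against 9.40% of all probe sets called higher. The second was lower with lincomycin in gun1-1 (-0.53, SE 0.15, adjusted p = 0.0413), against 4.90% called lower.

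Of 12 defence protein genes 4 were measured, and of these PDF1.4 alone was called in any comparison. It rose 4.90-fold with lincomycin in Col-0 (2.29, SE 0.38, adjusted p = 0.00189), against 9.40% of all probe sets called higher. On lincomycin it was 2.97-fold lower in gun1-1 than in Col-0 (-1.57, SE 0.38, adjusted p = 0.0233), against 4.04% called lower. Its lincomycin response was not called different between gun1-1 and Col-0. In gun1-1 its values were 5.76 and 4.63 without lincomycin and 4.99 and 5.83 with it. Of 8 genes of tryptophan-derived nitriles and camalexin AT1G26380 alone was measured. Of 7 cytokinin oxidase genes and 9 genes of pectin fragments and their perception 0 had a probe set of their own in the annotation used.

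Markers of other tissues also differed between the groups. Of 16 root markers 3 were measured, and 2 of them rose with lincomycin in gun1-1, EXPA18 (1.18, SE 0.31, adjusted p = 0.035) and AT3G54580 (1.30, SE 0.27, adjusted p = 0.0139), against 5.79% of all probe sets called higher. In abi4-102 AT3G54580 rose as well (1.03, SE 0.27, adjusted p = 0.0308), against 7.65% of all probe sets called higher, and the other 2 were not called. The summed level of the 3 on the linear scale was 143.6 to 265.7 with and 93.0 to 97.1 without lincomycin in gun1-1, 143.7 to 163.7 and 93.5 to 131.9 in abi4-102, and 113.5 to 154.1 and 102.8 to 114.7 in Col-0. The 1 measured green tissue marker of 10, RCA, the activase of Rubisco, had a level of 5343 to 5558 with and 6016 to 6070 without lincomycin in gun1-1, and its difference did not pass (-0.15, SE 0.12, adjusted p = 0.470). It fell in Col-0 (-0.98, SE 0.12, adjusted p = 0.000272), from 5898 to 5919 down to 2692 to 3330, and in abi4-102 (-0.92, SE 0.12, adjusted p = 0.000748), from 4974 to 5511 down to 2731 to 2795. The 2 epidermis and stomata markers measured of 10 summed to 49.6 to 58.2 with and 62.8 to 68.8 without lincomycin in gun1-1 and to 50.5 to 59.7 and 62.6 to 68.2 in Col-0. In abi4-102 they summed to 40.7 to 48.4 with and 56.3 to 61.5 without lincomycin. No marker was listed at 0, and the part of these tissues in the values of the 3 genes was not tested.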

How the data were processed

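The deposited table holds log2 values that the authors made with RMA, per the submitters' processing notes. RMA subtracts background, applies quantile normalisation across arrays and reduces the probes of a set to 1 value; its version is not given in the sources used here. The log2 scale was read from the values, with array medians of 5.44 to 5.52. The number of arrays limits the precision, and RMA shrinks differences of dim probe sets. Replicates (r = 0.990 to 0.996 across probe sets) carry different titles, and no label names separate cultures. The p-values therefore reflect the spread between these arrays alone, which may be technical.

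Of 22810 probe sets 64 controls were left out and 22746 entered lmFit and eBayes of limma 3.58.1 (R 4.3.3) with a mean for each of the 6 groups and 6 residual degrees of freedom over 12 arrays. Calls used a two-sided Benjamini-Hochberg adjusted p under 0.05 over all probe sets within a comparison. The fit was tested on simulated data. By the platform annotation 13513 of them name 1 gene, 503 name several and 8730 have no name here. Of 14349 gene identifiers 14265 matched the table of assembly TAIR10.1, used for names and gene order. A gene with several probe sets was read from the brightest. Whether probes of one family gene also bind a close paralogue was not tested.

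The 3 genes, the lists and the tests were chosen with earlier results of these data known. The rule for named genes took the 3 genes, all measured family genes, up to 3 called genes of each other list in the prevailing direction and 1 in the other, or those with the smallest p, the 3 annotated genes on each side, and the 5 genes with the highest Pearson correlation. Sequences are not used here, and the planned comparison of proteins and promoters was not run. Other settings tried were a block for the replicate number, fitting just the groups being compared, eBayes with trend and robust priors, median-centred arrays, the brightest 60% of probe sets, and omission of each array in turn.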

Additional observations from a re-analysis of the deposited data

Results flagged for a closer look

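The response to lincomycin was called different in gun1-1 from that in Col-0 for AT5G44400, AT1G30760 and the marker RCA. The genes screened were the 3 genes, the 21 other family probe sets and the measured markers (3 of root, 1 of green tissue, 2 of epidermis and stomata). The other genes named were not screened for this list. Of all probe sets 4.38% were called in this comparison. No count is set against this share, since AT5G44400 is among the genes listed. AT5G44400 had a log2 difference of -1.75 (SE 0.23), given as a description because the gene was chosen with this value known. AT1G30760 had a difference of -1.03 (SE 0.19, limma adjusted p = 0.0132). RCA (AT2G39730), the green tissue marker, differed the other way, by 0.83 (SE 0.17, adjusted p = 0.0201).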

How the results depend on the processing

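Of 267 differences of the 3 genes recomputed under the alternatives 239 moved by less than the SD between replicates and 0 called differences changed sign. A block, an intensity trend, a fit of only the groups compared and a filter by mean leave a difference of group means as it is by construction, so that only centring and leaving out an array could move it. These settings do move the SE and the adjusted p. No replicate pairing is given by the labels, and the deviations of same-numbered arrays correlated at -0.28 to 0.28 over 15 pairs of groups. The replicate block changed 1 call of the 3 genes, that of AT5G44440 in abi4-102 minus Col-0 with lincomycin (2.61, adjusted p = 0.0692 with the block in limma), and no other. Of the other family probe sets in gun1-1 minus Col-0 with lincomycin the block lost AT4G20860 (adjusted p = 0.0564 in limma) and gained that of AT1G30720 and AT1G30730 (adjusted p = 0.0375). Over all alternatives 16 calls of the 3 genes were lost and 8 gained, the latter in fits of only the groups compared (AT1G30700 in Col-0 and gun1-1, AT5G44440 in Col-0 and abi4-102, for lincomycin) or without 1 array. Without Col-0 with lincomycin replicate 1 the response of AT5G44400 in Col-0 was called (0.68).

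Leaving out 1 array gave ranges for AT5G44400 of 0.25 to 0.68 for the lincomycin response in Col-0, -0.15 to 0.28 in abi4-102, -0.62 to -0.19 for the response of abi4-102 minus Col-0, -1.96 to -1.53 for gun1-1 minus Col-0, -1.59 to -1.16 for gun1-1 minus Col-0 with lincomycin, and -0.70 to -0.28 and -0.30 to 0.13 for abi4-102 minus Col-0 with and without it. For AT5G44440 they were -1.88 to 0.12 for the response in gun1-1, -1.15 to 0.84 for that response minus Col-0 and -0.40 to 1.60 for gun1-1 minus Col-0 with lincomycin. For AT1G30700 they were -2.0 to -0.0058 for the response in abi4-102, -0.71 to 1.28 for that response minus Col-0 and -1.0 to 0.99 for abi4-102 minus Col-0 with lincomycin.

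Counts of called probe sets without 1 array were 2099 to 2949 (3948 with all) for lincomycin in Col-0, 1145 to 1764 (2432) in gun1-1, 1156 to 2052 (2993) in abi4-102, 392 to 840 (997) and 0 to 4 (0) for the response of gun1-1 and abi4-102 minus Col-0, 1501 to 1990 (2279) and 46 to 66 (104) for these mutants with lincomycin, and 0 to 24 (5) and 39 to 189 (383) without it. Fewer arrays are fitted there. With only the groups compared the counts were 766 for lincomycin in gun1-1, 1966 in abi4-102, 1080 and 21 for gun1-1 and abi4-102 minus Col-0 with lincomycin and 761 for abi4-102 without it. With the upper 60% of probe sets they were 62 for abi4-102 with and 1 for gun1-1 without lincomycin, where fewer probe sets are tested. The trend fit gave 9 for the response of abi4-102 minus Col-0, for which limma otherwise called 0, with 2230 at an unadjusted p under 0.05. The count of 4 other family probe sets lower in gun1-1 on lincomycin, added after seeing the data, was 2 with arrays centred on their medians, 0 to 4 without 1 array and 1 in a fit of only these groups, that of AT1G30720 and AT1G30730, which is not one of the 4. The cause was not tested.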
